A study of Mus musculus with 2 samples.

Results

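The Macf1 locus was examined in a FoxO3 ChIP-seq experiment on C2C12 cells, an established line of mouse muscle precursors that can be made to form myotubes in low serum. The members were chosen by position and by measured peak strength: all myotube peaks whose summit lay on chromosome 4 between 123010000 and 123370000 (mm9), a 360 kb window given as holding Macf1 and picked because its peaks were many and 1 of them was strong. There were 118 such peaks among the 45457 of the myotube list (0.260%), and 0 of the 501 peaks of the myoblast list. The study had 1 ChIP library of myoblasts in growth medium, sampled at hour -24 relative to differentiation medium, and 1 library of cells at hour 72 in differentiation medium, called myotubes here as in the design text. No genotype, transgene or further agent is given for either culture. C2C12 is a single established line, and the source label of both libraries reads C2C12 myoblasts, so the stage rests on the hour. Both used the same anti-Foxo3 antibody. With 1 library per group no value below has a replicate error, and no test was made.

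FoxO3 is a forkhead transcription factor. Insulin and growth factor signals, through the kinase Akt, keep it out of the nucleus, and in skeletal muscle it is best known for switching on genes of protein breakdown during atrophy. Macf1 encodes microtubule-actin crosslinking factor 1, a giant spectraplakin that ties microtubules to the actin cytoskeleton. In muscle fibres this protein is known for organising microtubules and for the placement of nuclei and mitochondria. A peak in a ChIP-seq list is a stretch where reads pile up above the local background, its summit is the highest point, and its fold enrichment is the pileup divided by the background there.

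A gene annotation of mm9 was not used here, so exons, introns and start sites were not assigned to any peak, and peak sequences were not read. In the RefSeq table of another assembly (GRCm38.p6), used only for the order of genes, the nearest protein-coding genes are Bmp8a on the side of lower coordinates and Ndufs5 on the other. That table also lists 6 smaller genes inside the span of Macf1, among them the microRNA gene Mir6398 and the protein-coding gene D830031N03Rik. Whether any peak of the window belongs to those genes was not examined.

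The strongest site of the window lay at chr4:123070322-123070732, 411 bp wide, with its summit at 123070467. Its fold enrichment was 68.87, with a −log10 p-value of 180.95 and a −log10 q-value of 175.12. The read pileup recovered from these values was 126 reads (95% exact Poisson interval 105 to 150, counting error only) over a background of 1.83 reads. It stood 60.5 kb inside the lower edge of the window, with 33 members below it and 84 above it. Fold enrichment was part of how the locus was picked, so its height is a description. In the whole list 37 peaks had at least this fold and 58 had at least this −log10 p-value, the site itself counted in each. Chromosome 4 held 2938 myotube peaks, and this one ranked 3 by fold among them.

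The other 117 members were modest. Their median fold was 7.63 (quartiles 6.44 and 9.25), their median pileup 14 reads and their median width 187 bp. The strongest site was thus 9.03 times their median in fold and 9 times in pileup, and 2.89 times the next member in fold. In width it ranked only 9 of 118. The next highest pileups, 58 reads at 2 members, had an interval of 44.04 to 74.98, below that of the strongest site. The site was picked as the highest of 118 in fold, of which pileup is a part. The separation is therefore a description and not a test.

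**Figure D1:**
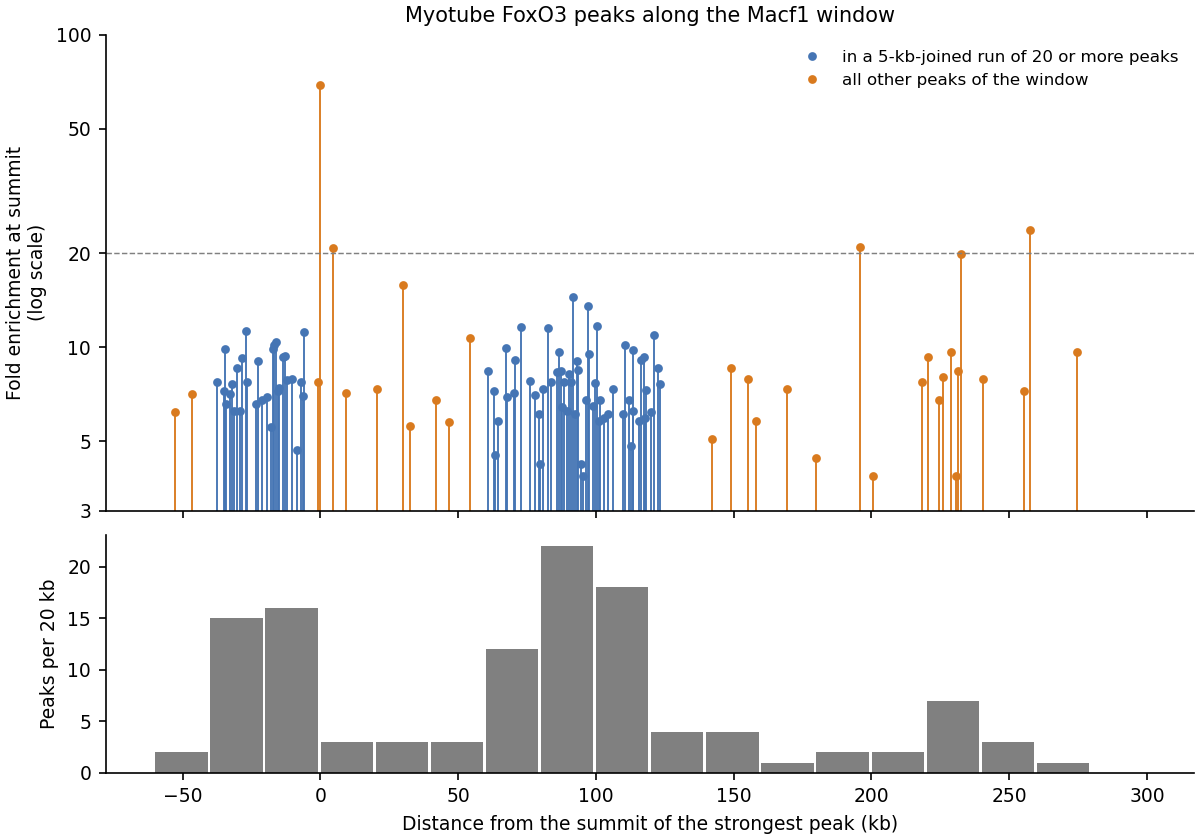
Upper panel: fold enrichment at the summit (log scale) of each of the 118 myotube peaks against distance from the summit of the strongest peak in kb, coloured by whether the peak belongs to a run of at least 20 peaks joined at 5 kb. The dashed line marks a fold of 20. Lower panel: number of peaks per 20 kb, with bins laid from the lower edge of the window. The strongest peak, at fold 68.87, stands between a dense run below it and another above it, and no peak of those runs exceeds a fold of 14.54.

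A small set of 5 further members stood above the rest. By fold they were led by a peak of 202 bp near the upper end, at chr4:123328007-123328208, with a fold of 23.79 from 36 reads over a background of 1.51. Next came the widest member, 653 bp at chr4:123265923-123266575, with a fold of 20.89 from 58 reads over 2.78. The nearest neighbour of the strongest site on its upper side, 4656 bp away at chr4:123075022-123075464, had a fold of 20.79 from 43 reads over 2.07. These 3 lay 258 kb, 196 kb and 4.66 kb from the strongest site, so the strong peaks were spread over most of the locus.

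The remaining members of this set were at chr4:123302829-123303179, with a fold of 19.93 from 44 reads, and at chr4:123100033-123100388, with 15.85 from 58 reads. The latter had the same pileup as the widest member but a higher background, 3.66 reads, which lowers its fold. By −log10 p-value the order of the 5 changed: 55.17 for the widest member, 48.47 for the peak at 123100033, 41.54 for 123302829, 41.41 for 123075022 and 37.11 for 123328007. The peak at 123328007, second by fold, was therefore sixth by p-value. Below these the p-values dropped to 22.21, for a peak of fold 11.60 and 30 reads at chr4:123143189-123143447.

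At a fold of 20 or more there were 4 members of 118 (3.39%, Wilson 95% interval 1.33% to 8.39%), against 5.88% of the whole myotube list. At a −log10 q-value of 10 or more there were 22 members (18.6%), against 41.4% of the list. Folds under 10 made up 84.7% of the members and 64.6% of the list. The other runs of at least 20 peaks, with edges joined within 12 kb, are the more similar regions. In them 0.477% of peaks reached a fold of 20, 16.8% reached that q-value and 80.9% had folds under 10. The window also takes in peaks outside its own such run. In that run, of 98 peaks, 2.04% reached a fold of 20 (2 peaks, Wilson 95% interval 0.561% to 7.14%). There 14.3% reached the q-value and 84.7% had folds under 10. Fold was among the values that picked the locus, so these shares are given as a description. The weakest members, 3 peaks tied at a fold of 3.87, lay at chr4:123165568-123165833 (12 reads), chr4:123270910-123271204 (18 reads) and chr4:123301166-123301287 (12 reads).

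**Figure D2:**
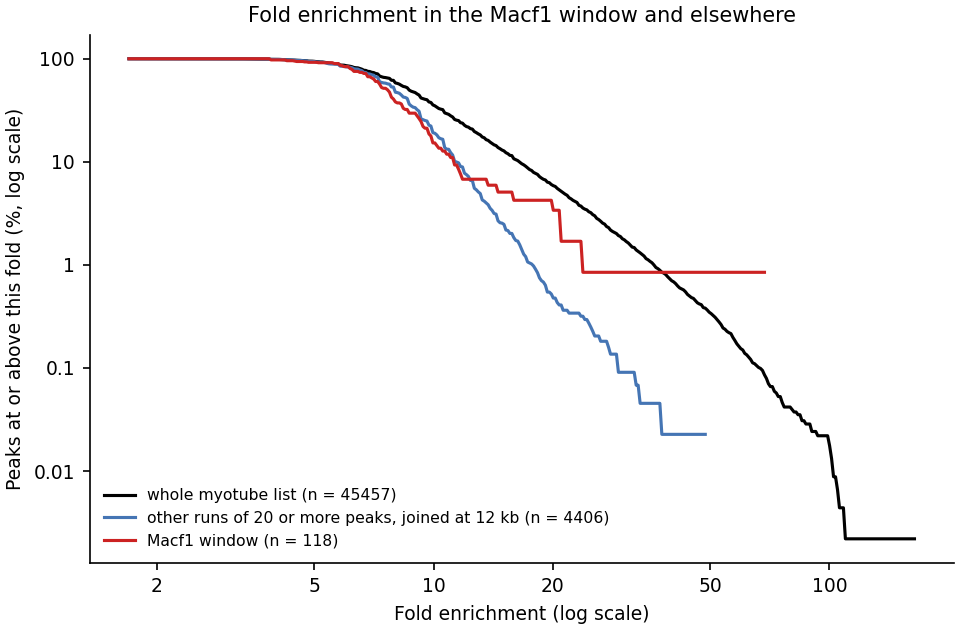
Percentage of peaks (log scale) at or above each fold enrichment (log scale) in the Macf1 window (118 peaks), in the other runs of at least 20 myotube peaks joined at 12 kb (4406 peaks) and in the whole myotube list (45457 peaks). At a fold of 20 the window stands at 3.39%, the other runs at 0.477% and the whole list at 5.88%. The window also takes in peaks outside its own run of 98, and that run alone stands at 2.04%. Above 23.79 the window's curve runs flat at 1 peak of 118 (0.847%) up to 68.87.

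The members of highest fold lay outside the 2 most crowded stretches of the window. With peaks joined where their edges lay within 5 kb, the window held 2 runs of at least 20 peaks. The lower one, from 123032708 to 123064567, had 30 peaks in 31.9 kb, with folds from 4.70 to 11.24. The upper one, from 123131055 to 123193903, had 56 peaks in 62.8 kb, with folds from 3.87 to 14.54. Together they held 72.9% of the members in 26.3% of the window's length. None of the 6 members with a fold of 15 or more was among these 86 peaks (0%, Wilson upper bound 4.28%), and all 6 were among the other 32. In the whole list 12.8% of peaks reached that fold, and in the other runs of at least 20 peaks at this joining distance 2.104% did, so a count of 0 in 86 was close to what such runs held elsewhere. The split depends on the joining distance, as the runs took in 0 of the 6 at 3 kb, 2 at 8 kb and 3 at 12 kb. Across all 118 members, fold and the number of other peaks within 10 kb had a Spearman rho of -0.018, so ranks of fold hardly followed crowding. With only 6 members at a fold of 15 or more, this rho says little about the highest folds. The 2 parts of the fold each fell slightly with crowding, with a rho of -0.188 for pileup and -0.162 for background. The strongest site itself had 7 others within 10 kb.

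The stretch between those runs was 66.5 kb long and held 10 members, among them the strongest site and the peaks at 123075022 and 123100033. Going down from the strongest site, the first neighbour was a peak of fold 7.74 (20 reads) at chr4:123069587-123069712, whose summit was 835 bp away. The next was a peak of fold 11.19 (18 reads) at chr4:123064384-123064567, the last of the lower run. On the upper side, beyond the peak of fold 20.79, came a peak of fold 7.13 (18 reads) at chr4:123079566-123079767. The members at both ends were modest, with a fold of 6.19 at chr4:123017557-123017747 and 9.67 at chr4:123344909-123345140. Just outside the window, the nearest myotube peaks were at 122983054 to 122983238 (fold 4.19) and at 123395490 to 123395656 (fold 8.17).

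Crowding was also seen in single distances. The median gap between neighbouring summits was 1271 bp (quartiles 665 and 2622), against 11524 bp over the whole list, and 41.0% of the 117 gaps were at most 1 kb, against 13.1%. Joined at 12 kb, the run of 98 members had a median gap of 1118 bp and 48.5% of gaps within 1 kb. The other largest runs, of 96, 146, 181 and 198 peaks, had medians of 623 to 1171 bp and shares of 44.2% to 77.9%. Close spacing was therefore not particular to this window. The closest pair of summits lay 228 bp apart, at chr4:123183775-123183900 (fold 9.84) and chr4:123184036-123184157 (fold 6.28). The widest gap, 18805 bp, began where the upper run ended and led to a peak of fold 5.08 at chr4:123212556-123212787. Per 20 kb the number of peaks ranged from 0 to 22, and the fullest bin, from 123150001 to 123170000, had a median fold of 7.74.

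Over the full window the density was 328 peaks per Mb (118 peaks, Poisson interval 97.7 to 141, counting error only). This was 16.98 times the density of chromosome 4, 19.3 per Mb. The locus was picked for its many peaks, so the ratio describes the choice and is not a test. Stretches of the same length on either side held 20 peaks below and 16 above. Density fell off within the window too: the 193 kb below the middle of the widest gap held 98 members and the 167 kb above it held 20. Median folds of these stretches were 7.51 and 7.93, and each had 3 of the 6 members with a fold of at least 15. At folds from 10 to under 15 the counts were 12 below the gap and 0 above it, so the drop in number was not limited to the weakest peaks.

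Read counts behind the members were low. A pileup of at most 15 reads was recovered for 67 members (56.8%), against 35.4% of the list, and 40 or more reads for 5 (4.24%), against 8.14%. The median pileup of the members was 14 reads (quartiles 12 and 18). It was also 14 (quartiles 12 and 17) in the other runs of at least 20 peaks joined at 12 kb. Low counts were therefore not particular to this window. At 14 reads, the median pileup, the exact interval spans 7.65 to 23.5 reads, so most members cannot be ranked against each other within counting error. Values repeated for the same reason: the 118 members had 95 distinct pairs of fold and p-value, and 4 members shared a fold of 6.28 with 13 reads over a background of 2.07.

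Background was low throughout, and the 6 members of highest fold, at 1.51 to 3.66 reads, lay within the range of the others. The most frequent background of the myotube list was 1.51 reads. In the window the median was 1.77 reads (range 1.51 to 4.65), against 2.07 over the list. It was lower still, 1.58 reads, in the other runs of at least 20 peaks joined at 12 kb. The most frequent level, 1.51 reads, was found at 14 members (11.9%), against 20.5% of the list. Only the peak at 123270910 had more than 3 times 1.51 reads, where 3.58% of the list did. In the dense runs the median was 1.71 reads, and in the other 32 members 2.18. Median pileups were 14 and 19 reads in these groups, whose median folds of 7.62 and 7.74 were closer.

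**Figure D3:**
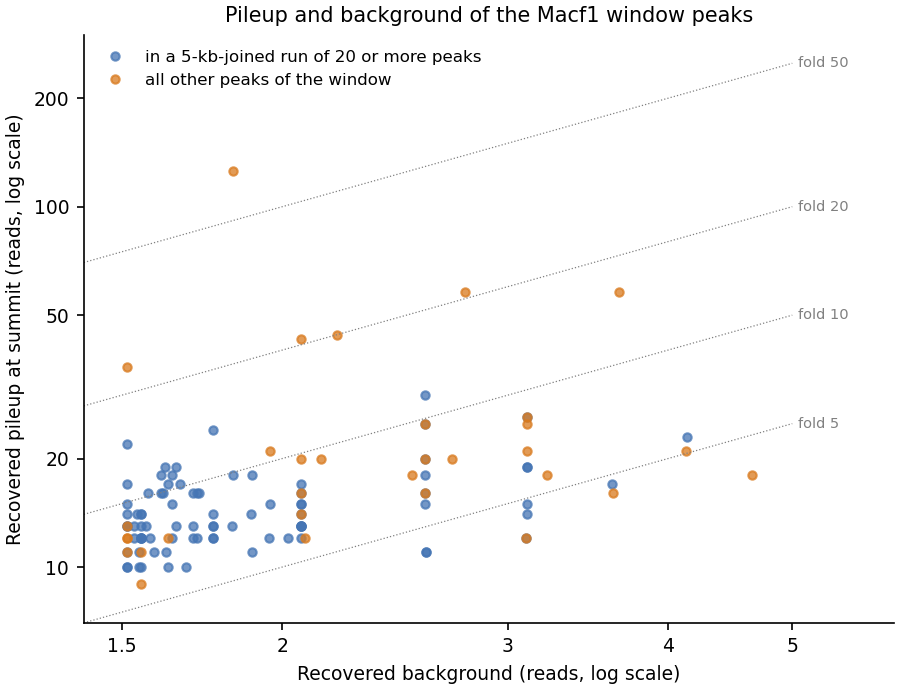
Recovered pileup at the summit against recovered background, in reads and on log scales, for the 118 members, coloured by whether the peak belongs to a run of at least 20 peaks joined at 5 kb. Dotted lines mark equal fold. The strongest site, 126 reads over 1.83, lies above the line of fold 50, and most members lie between folds 5 and 10 with under 20 reads.

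Widths were mixed. The median width of the members was 188.5 bp (quartiles 126 and 296.75), against 186 bp (142 and 257) over the list. The smallest width of the list, 122 bp, was found at 25 members (21.2%), against 11.98% of the list. Wide peaks occurred among weak ones: after the widest member, the next widest were 515 bp at chr4:123187560-123188074 (fold 9.32, 16 reads) and 501 bp at chr4:123168965-123169465 (fold 6.47, 10 reads), in the upper dense run. Width rose with pileup across the members with a Spearman rho of 0.49 (n = 118), and of 0.50 across the list. These points come from 1 library and share its depth.

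Other crowded regions of the list held similarly weak peaks and no site of this fold. Joined at 12 kb, 98 members formed a run from 123017557 to 123193903, 1 of 107 runs of at least 20 peaks in the list. The median over these runs of the highest fold was 14.54 (quartiles 12.5 and 17.5). The run at Macf1 had the highest of all 107, 68.87, followed by 49.14 in a run of 20 peaks on chromosome 3 from 88411347 to 88464066. Of the 4504 peaks in such runs 23 had a fold of 20 or more, spread over 16 runs, and 2 of them were in the run at Macf1. As this locus was picked for holding dense peaks and a strong one, its rank describes the choice and is not a test.

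The other 4 runs with over 90 peaks had lower maxima. Their highest folds were 29.26 (181 peaks, chromosome 2 from 51990079), 17.18 (146 peaks, chromosome 4 from 32743885), 17.07 (198 peaks, chromosome 2 from 76539614) and 15.54 (96 peaks, chromosome 11 from 23264317). Their median folds, from 7.84 to 9.02, were above the 7.51 of the run at Macf1. Peaks covered 12.3% of the length of the run at Macf1, the lowest of the 5, and 38.8% of the run of 146. The run at Macf1 also had the lowest density of the 5, 556 peaks per Mb against 682 to 1205. The highest fold over the median of the other peaks was 9.31 at Macf1 and 1.85 to 3.49 in the others.

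**Figure D4:**
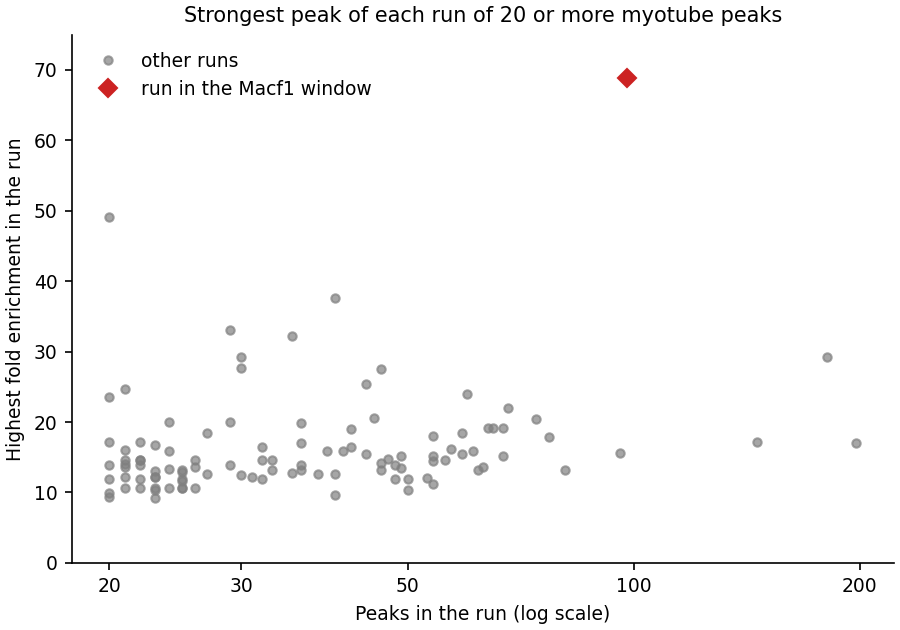
Highest fold enrichment in each of the 107 runs of at least 20 myotube peaks (joined at 12 kb) against the number of peaks in the run (log scale). The run in the Macf1 window, with 98 peaks and a highest fold of 68.87, lies above all others, of which the highest reaches 49.14.

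Seen from the strong peaks, the surroundings of the Macf1 site were crowded. The list had 157 peaks with a fold of at least 50. Within 50 kb of their summits these had a median of 5 other peaks (upper quartile 8), and the Macf1 site had 39, the most of the 157, followed by 21; crowding was part of the choice of this locus. Within 25 kb the Macf1 site had 22 others and the median was 3. Of the other strong members, the peak at 123328007 had 1 other within 10 kb and the widest member had 1, whereas the median over all members was 14. A strong peak in this window could thus stand nearly alone.

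No myoblast peak lay in the window (0, Poisson interval 0 to 3.69). The nearest ones were at chr4:123552249-123552324, 182 kb above the upper edge, with a fold of 18.03 and 8 reads, and at chr4:120427449-120427529, 2583 kb below the lower edge, with a fold of 20.28 and 9 reads. Neither overlapped a myotube peak by 1 bp. Chromosome 4 had 30 myoblast peaks. At that density a window of this length holds 0.0823 peaks. In the myotube list, where its many peaks were part of the choice, the window had 16.98 times the chromosome's density. Whether the length of the myoblast list accounts for the 0 was not tested. At the most frequent background of the myoblast list, 0.44 reads, no listed peak had a fold under 13.52. In myotubes 8 of the 118 members (6.78%) reached that fold. Between 16.4% and 17.1% of the whole myotube list reached it. In the other runs of at least 20 peaks, joined at 12 kb, 3.99% to 4.15% of peaks did. Over the whole myoblast list the lowest fold was 1.56, which all 118 members reached, as did every peak of the myotube list. The most frequent background of the myotube list was 1.51 reads, so folds of the 2 lists are not on a like scale. Neither count tells which members could have been listed in myoblasts. The lists were called separately, with different backgrounds, so a lower occupancy at Macf1 in myoblasts and a less sensitive library cannot be told apart.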

How the data were processed

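Peaks came from the deposited lists, 1 per library. Per the submitters' processing notes, the tool was MACS2 2.1.0 and the build mm9. For the aligner, control library, duplicate handling and threshold, the sources used here give nothing. The layout is narrowPeak, per the file headers. The authors' caller gave each peak a fold (a linear ratio of pileup to local background), −log10 p-values and q-values, a score, and the distance of the summit from the start. The deposited score only restates the −log10 q-value and was not used.

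Pileup and background were recovered here as the whole number of reads whose fold and Poisson tail probability match the deposited pair, within 0.02 on the log10 scale beyond rounding. All 118 members matched; in the whole lists 45452 of 45457 myotube and 501 of 501 myoblast peaks did, and the other 5 kept the nearest whole number. Recovery and joining were tested on simulated data. The simulated p-values came from the same Poisson formula as the recovery. That test therefore checks the arithmetic and cannot tell whether the caller used this formula. Total depth is unknown. Poisson and Wilson intervals (95%) cover counting error only. Coordinates count from 1.

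The window and the measures were chosen with earlier results of these data known. Named peaks were the strongest, the next 5 by fold, the 2 nearest neighbours on each side, the extremes of fold, width, position and spacing, the 2 longest runs, and the nearest myoblast peaks; a few others (the seventh by p-value, the next widest) were added after their values were seen. Python 3.11.15, numpy 2.4.6, pandas 2.3.3, scipy 1.17.1 and matplotlib 3.10.9 were used.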

Additional observations from a re-analysis of the deposited data

How the results depend on the processing

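Every value rests on 1 library, and low pileups limit the ranking of weak peaks. With −log10 q-values of 10 or more required, the window held 22 myotube peaks, the median gap was 6407 bp and the strongest site was 6.13 times the median fold of the others. At 5 or more that ratio was 8.22 and the gap 2036.5 bp. Set against the next strongest peak the ratio was 2.89. The longest run held 47.5% of members when joined at 5 kb and 100% at 25 kb, against 83.1% at 12 kb. Without peaks of the smallest width the median width was 214 bp. The joining distances of 3, 8 and 12 kb for strong peaks inside runs were chosen after seeing the data. Of 22 alternatives, 11 moved by more than the interval (or, for counts, by more than 1.5 times) and 11 did not. Those that did not include the number of myotube peaks (81), the share at a fold of 20 or more, the median width and the median background at a −log10 q-value of 5. The myoblast count was 0 with the window widened by 100 kb at each end. No paired analysis was possible because the design holds a lone library per stage.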
